A study of Mus musculus with 3 samples.

Results

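The ETS family of transcription factors was followed in mouse pro-B cells with and without Pax5, through 9 listed genes: Spi1, Spib, Ets1, Ets2, Fli1, Erg, Elf1, Etv6 and Elk3. They were chosen by name from 27179 genes in the count table, and all 9 had enough reads to be tested. RNA sequencing covered 2 Pax5-/- samples (male, C57BL/6) and 1 wild-type sample (female, C57BL/6), each grown from bone-marrow B220+ cells on OP9 stromal feeders. For the Pax5-/- samples the labels add immunomagnetic depletion of IgM+ cells at day 7, while for the wild type they state neither day nor depletion. Which part of Pax5 is deleted, and whether each culture came from a separate mouse, is not given in the sources used here. The p-values rest only on how far the 2 Pax5-/- samples spread, for each gene and over all genes together. The single wild-type culture is taken to vary as the Pax5-/- samples do.

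ETS factors share a DNA-binding domain that recognises a GGAA core. PU.1, the product of Spi1, sets the balance between myeloid and lymphoid fates by its amount, and its close relative Spi-B, the product of Spib, binds nearly the same sites in B cells and plasmacytoid dendritic cells. Ets1, Ets2, Fli1 and Erg form related pairs that act in lymphocytes, in stem cells and in blood vessels, Elf1 activates many lymphoid genes, and Etv6 and Elk3 are best known as repressors.

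Library totals ran from 6487846 to 6697879 counts. Values below are CPM, counts scaled to a common library size, unless they are given per kilobase of gene length, the only scale on which the levels of different genes are ranked. Pax5 itself stood at 64.4 and 80.9 CPM in the Pax5-/- samples against 250 CPM in wild-type cells (log2 fold change -1.78, SE 0.19, adjusted p = 0.0107, edgeR; 0.0819 if the biological variation is set to 0.4), and gene counts include any exons that the allele keeps. All 8 B-lineage markers that were looked up, such as Cd79b and Rag1, passed the filter on low counts, and 3 of them rose, 4 fell and 1 was not called. The share called over all genes tested was 18.1%. The summed level of these markers was 2750 and 3127 CPM without Pax5 and 4861 CPM in wild-type cells.

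The make-up of the family differed between the genotypes. Spib fell 26.1-fold, Elk3 rose 5.62-fold and Etv6 2.67-fold, and smaller changes were called for Elf1, which rose 1.45-fold, and Ets1, which fell 1.55-fold. In all, 3 of the 9 members rose, 2 fell and 4 (Spi1, Fli1, Erg and Ets2) were not called. Over all 11783 genes tested, 18.1% were called, 9.53% higher and 8.55% lower (quasi-likelihood test of edgeR, adjusted by Benjamini-Hochberg, threshold 0.05). The median log2 change of the 9 members was -0.16, beside 0.01 for all genes tested. These are bulk cultures, so fewer cells that express a gene and less RNA per cell cannot be told apart.

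**Figure D1:**
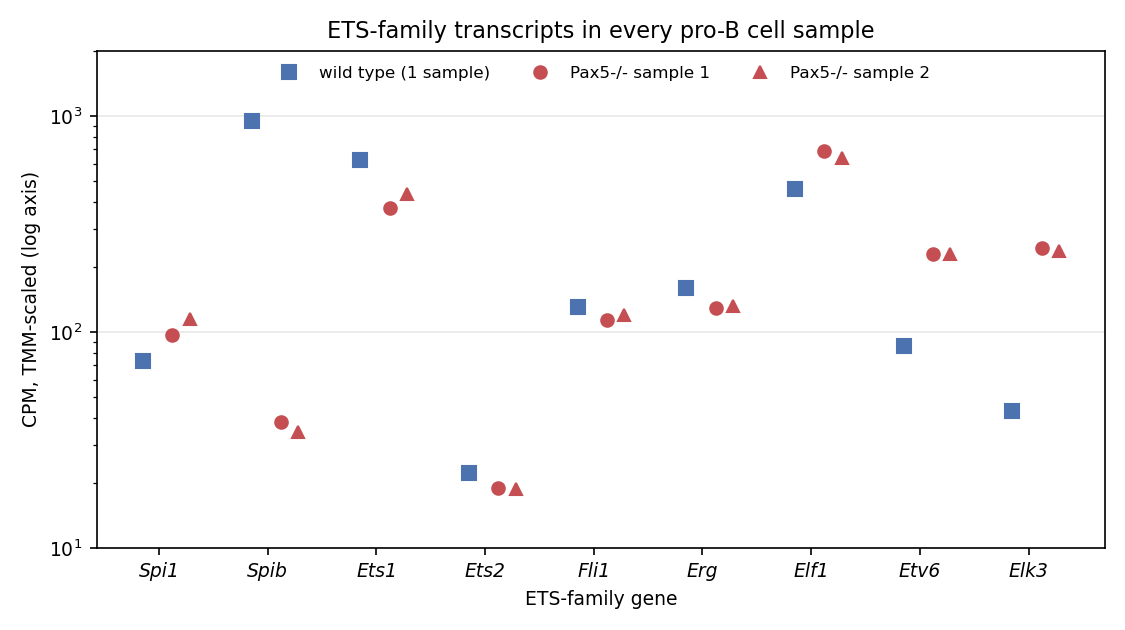
Level of each of the 9 ETS genes in every sample, in TMM-scaled CPM on a log axis, with squares for the wild type and circles and triangles for Pax5-/- samples 1 and 2. Spib drops from 949 CPM to 38.4 and 34.4 CPM, while Elk3 and Etv6 lie above the wild type in both Pax5-/- samples.

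Spib (Entrez 272382, chromosome 7, 44525995 to 44532087, GRCm38, which mm10 names) moved furthest among the 9. It had 6083 counts in wild-type cells and 249 and 234 in Pax5-/- samples 1 and 2, or 949, 38.4 and 34.4 CPM. The Pax5-/- pair differed little from each other and both lay far below the wild type. The log2 fold change (log2 change below) was -4.70 (SE 0.13, adjusted p = 0.00265, edgeR), and the call held under all 8 alternative analyses.

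Spi1 (Entrez 20375, chromosome 2, 91082374 to 91115759), is the gene of PU.1. It stood at 97.1 and 115 CPM without Pax5 and 73.3 CPM in wild-type cells. Spi1 was not called, with a log2 change of 0.53 (SE 0.18, adjusted p = 0.120, edgeR).

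Per kilobase of gene length, Spib transcripts outnumbered those of Spi1 in wild-type cells by 6.19 to 1 (95% exact binomial interval 5.64 to 6.82, counting error only). In the Pax5-/- samples Spi1 was the more abundant, by 5.28 to 1 (4.55 to 6.14) in sample 1 and 6.99 to 1 (6.04 to 8.13) in sample 2. The order of these related factors was thus opposite in the genotypes. Their summed level was 86.6 and 98.6 CPM per kilobase without Pax5 against 396 in wild-type cells.

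Elk3 (Entrez 13713, chromosome 10, 93247415 to 93311159) encodes Net, a ternary complex factor that works with serum response factor and can repress its targets. It rose from 42.9 CPM to 245 and 237 CPM. The Pax5-/- samples were close to each other, and the log2 change was 2.49 (SE 0.15, adjusted p = 0.00413, edgeR), past the threshold in all 8 alternatives.

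Etv6 (Entrez 14011, chromosome 6, 134035700 to 134270158) encodes TEL, a repressor needed for blood stem cells in adult marrow. It rose from 86.3 CPM to 230.3 and 230.0 CPM, a log2 change of 1.42 (SE 0.13, adjusted p = 0.00873, edgeR). The Pax5-/- samples were nearly equal. The call was lost only when each gene was given a biological variation of 0.4 (adjusted p = 0.376).

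The strand setting of the counting is not given in the sources used here, so reads of genes on opposite strands cannot be separated where exons overlap. In the GENCODE M21 annotation, Elk3 shares 316 exon bases with Cdk17, Elf1 shares 327 with Wbp4, and Etv6 shares 135 with the antisense gene Gm17089, each on the other strand. Cdk17 had a log2 change of 0.48 (SE 0.15, adjusted p = 0.102) and Wbp4 of -0.06 (SE 0.15, adjusted p = 0.807), by edgeR, so neither was called. No such overlap was found for the other 6 members.

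The 250 bases before a transcription start of Spib, Elk3 and Etv6, the members with the largest fold changes, show how many copies of the family's own GGAA core lie there. They come from RefSeq (GRCm38.p6), are written 5′ to 3′ on each gene's own strand, and carry GGAA, or TTCC where the core is on the other strand, in capitals.
Spib, minus strand, chr7:44532072-44532321: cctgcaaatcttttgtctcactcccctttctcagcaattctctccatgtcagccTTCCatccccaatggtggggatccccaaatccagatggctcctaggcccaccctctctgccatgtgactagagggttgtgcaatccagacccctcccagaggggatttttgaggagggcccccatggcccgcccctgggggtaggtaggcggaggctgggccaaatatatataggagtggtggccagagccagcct
Elk3, minus strand, chr10:93311160-93311409: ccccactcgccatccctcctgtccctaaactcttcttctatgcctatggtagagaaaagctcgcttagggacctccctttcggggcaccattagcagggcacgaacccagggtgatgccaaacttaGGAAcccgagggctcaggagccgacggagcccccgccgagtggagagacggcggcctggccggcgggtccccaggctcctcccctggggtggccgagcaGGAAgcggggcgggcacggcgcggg
Etv6, plus strand, chr6:134035450-134035699: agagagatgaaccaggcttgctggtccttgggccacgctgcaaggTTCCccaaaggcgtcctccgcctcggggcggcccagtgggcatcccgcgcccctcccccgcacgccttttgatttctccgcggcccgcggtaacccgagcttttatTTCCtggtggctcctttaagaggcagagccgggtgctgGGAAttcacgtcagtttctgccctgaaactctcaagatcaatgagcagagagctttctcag

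The Spib window reaches down to 44532072, inside the gene span that ends at 44532087, so it lies before a transcript start within that span. It held 1 GGAA core, 196 to 193 bases before that start. Elk3 held 2, the nearer of them 25 to 22 bases before the start, and Etv6 held 3. Of 32851 RefSeq windows of the same length, 93.4% held at least 1 core on either strand, with a median of 3, so these counts do not set the genes apart. The longer GAGGAA, which contains a GGAA and is part of the classical PU.1 site, was in 23.3% of all windows and in none of these 3. A match of letters is a description and no evidence of binding. RefSeq windows were matched for 6 of the 9 members, and Spi1, Ets1 and Fli1 had none.

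Elf1 (Entrez 13709, chromosome 14, 79481174 to 79582491), an activator in T and B cells, rose modestly. It stood at 690 and 640 CPM without Pax5 and 459 CPM in wild-type cells (log2 change 0.53, SE 0.11, adjusted p = 0.0467, edgeR). The call was lost with limma-voom (adjusted p = 0.0521) and with the assumed variation of 0.4 (adjusted p = 1.00).

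Ets1 (Entrez 23871, chromosome 9, 32636241 to 32757820), which restrains the passage of B cells into plasma cells and binds the Cd79a promoter together with Pax5, was the other member that fell. Its levels were 375 and 435 CPM without Pax5 against 626 CPM (log2 change -0.63, SE 0.13, adjusted p = 0.0489, edgeR). Both Pax5-/- samples lay below the wild type. The adjusted p rose to 0.0730 with scaling by library size only, to 0.0556 with limma-voom and to 1.00 with the assumed variation.

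Fli1 (Entrez 14247, chromosome 9, 32422204 to 32543432), a factor of stem cells and megakaryocytes, lies next to Ets1, 92.8 kb away with no protein-coding gene between them. It was at 113 and 120 CPM without Pax5 and 131 CPM in wild-type cells, and was not called (log2 change -0.16, SE 0.14, adjusted p = 0.456, edgeR). Neighbouring Ets1 was called and Fli1 was not, but the difference between their fold changes was not tested.

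Erg (Entrez 13876, chromosome 16, 95359169 to 95586600), which stem cells need to renew themselves, and Ets2 (Entrez 23872, chromosome 16, 95702407 to 95721049), a target of Ras signalling, form a second such pair, 116 kb apart with no protein-coding gene between. Erg was at 128 and 131 CPM without Pax5 against 159 CPM (log2 change -0.30, SE 0.13, adjusted p = 0.194, edgeR). Ets2 was at 19.0 and 18.7 CPM against 22.1 CPM (log2 change -0.23, SE 0.19, adjusted p = 0.426, edgeR). In each of these genes the Pax5-/- samples lay slightly below the wild type, by less than the test could call.

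**Figure D2:**
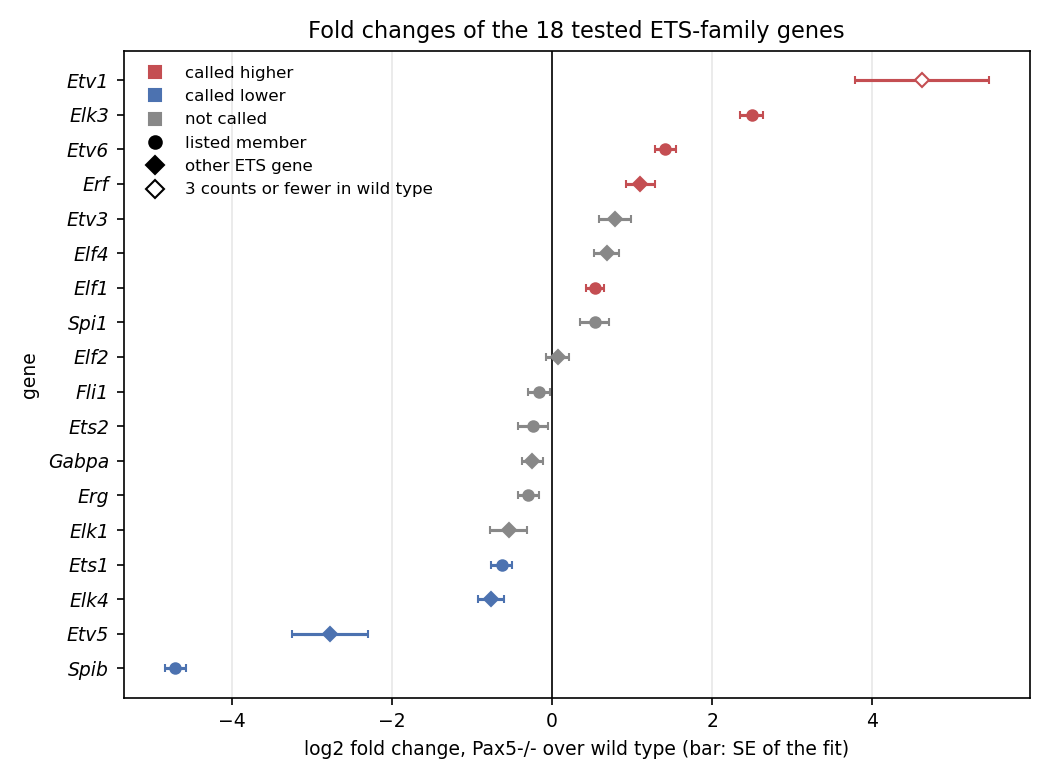
Log2 fold change (Pax5-/- over wild type), with its SE, for the 18 ETS genes that passed the filter on low counts, ordered by size; circles are the 9 listed members and diamonds the others. Spib is the lowest, at -4.70, and Elk3 is the highest of the listed members, at 2.49, while the highest point of all, Etv1, with an open marker, rests on 1 count in wild-type cells.

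Per kilobase and among the 9 listed members, the wild type was led by Spib at 341 CPM per kilobase. Ets1 (124), Elf1 (109), Erg (71.9), Spi1 (55.0), Fli1 (42.3), Etv6 (15.6), Elk3 (10.1) and Ets2 (6.23) followed. With 1 wild-type sample, that order has no replicate check. In Pax5-/-, Elf1 led the 9 members at 158 ± 8.37 CPM per kilobase (SD, n = 2). Ets1 (80.0 ± 8.41) and Spi1 (79.6 ± 9.51) followed and changed places between the samples. Erg (58.6 ± 0.834) and Elk3 (57.0 ± 1.34) were next, in that order in both samples but apart by little more than their spread. Etv6 (41.5 ± 0.0319) and Fli1 (37.8 ± 1.61) came after them, then Spib (13.1 ± 1.03) and Ets2 (5.29 ± 0.0654). With the other ETS genes included, Spib ranked 1 in wild-type cells and 12 in both Pax5-/- samples.

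Over the 9 members and 17 other ETS genes together, Spib made up 37.6% of the summed level per kilobase in wild-type cells and 2.09% and 1.80% in the Pax5-/- samples. Elk3 went from 1.12% to 8.76% and 8.17%, and Elf1 from 12.03% to 24.7% and 22.1%. The whole sum was 661 and 686 CPM per kilobase without Pax5 against 905 in wild-type cells. With Spib left out it was 648 and 674 against 564, higher in both Pax5-/- samples.

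**Figure D3:**
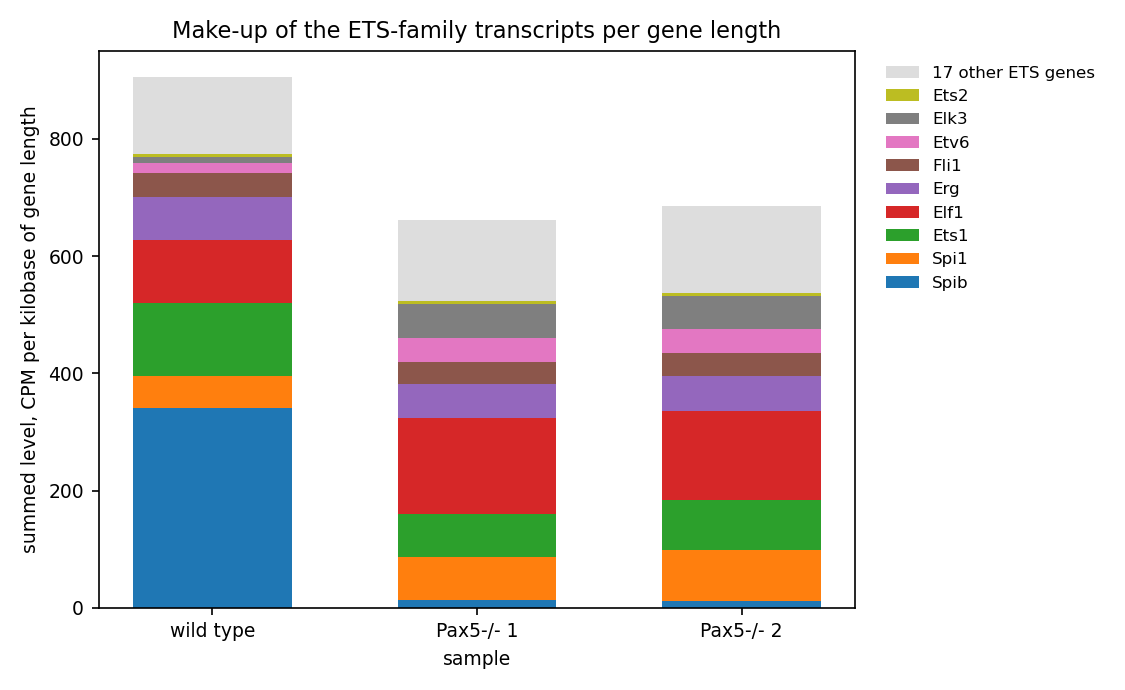
Stacked level of each ETS gene in each sample, in CPM per kilobase of gene length, with the 17 other ETS genes summed in light grey at the top. The Spib block falls from 341 in wild-type cells to 13.8 and 12.3 in Pax5-/-, and the blocks of Elk3 and Etv6 grow.

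Of the 17 other ETS genes, 9 passed the filter, of which 2 rose, 2 fell and 5 were not called, where 18.1% of all genes tested were called. Spic, which macrophages of the spleen use, Etv2, which acts in early vessel formation, Fev of serotonin neurons and the epithelial genes Elf3, Elf5, Ehf and Spdef had no count in any sample. A zero allows up to 3 counts, or 0.441 to 0.468 CPM at these depths. Etv4 had 1, 0 and 4 counts.

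Erf, a repressor regulated by ERK, rose from 13.3 CPM to 28.7 and 28.3 CPM (log2 change 1.10, SE 0.19, adjusted p = 0.0295, edgeR), a call lost with DESeq2 and with the assumed variation. Etv3, a related repressor, was at 91.1 and 113 CPM against 59.0 CPM and not called (adjusted p = 0.0696), though it passed with 3 of 8 alternatives. Among the ETS genes best known as repressors, a grouping made after the values were seen, Elk3, Etv6 and Erf were thus called higher and Etv3 was not called.

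The PEA3 group, effectors of growth factor signals, was expressed at low levels and split. Etv5 fell from 13.4 CPM to 1.23 and 2.64 CPM (log2 change -2.77, SE 0.47, adjusted p = 0.0302, edgeR). Its log2 change was -2.33 with Pax5-/- sample 1 left out and -3.42 with sample 2 left out. Etv1 had 23 and 34 counts without Pax5 and 1 in wild-type cells, a ratio of 27.5 (95% exact interval 4.74 to 1105). It passed the filter only through the Pax5-/- samples, and its call (adjusted p = 0.0339, edgeR) was lost with DESeq2 and limma-voom.

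Elk4, a ternary complex factor like Elk3, fell from 53.5 CPM to 29.5 and 33.6 CPM (log2 change -0.76, SE 0.16, adjusted p = 0.0467, edgeR). That call was lost in 4 of 8 alternatives: library size alone, DESeq2, limma-voom and the assumed variation. Elk1, the third of these factors, was at 9.88 and 9.84 CPM against 14.3 CPM and not called (adjusted p = 0.188). Srf, their shared partner, was at 78.1 and 81.4 CPM against 80.2 CPM, a log2 change of -0.01 (SE 0.15, adjusted p = 0.973, edgeR).

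Elf4, which keeps lymphocytes quiescent, was at 194 and 221 CPM against 129 CPM and missed the threshold (log2 change 0.68, SE 0.15, adjusted p = 0.0531, edgeR), passing it in 5 of 8 alternatives. Elf4 and Elk1 are on the X chromosome, and sex cannot be told apart from genotype in these samples. None of the 9 listed members is on a sex chromosome. Elf2 was at 97.7 and 97.4 CPM against 92.8 CPM, and Gabpa, the DNA-binding subunit of GABP, at 150 and 154 CPM against 180 CPM. Neither was called (adjusted p = 0.749 and 0.253, edgeR), nor were the GABP beta subunits Gabpb1 and Gabpb2.

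Partner factors that bind DNA with ETS proteins were examined next. Of 15 partner factors on the list, 11 were tested, of which 4 fell, 2 rose and 5 were not called. Their median log2 change was -0.40, and 18.1% of all genes tested were called. Irf4, which needs PU.1 or Spi-B to bind composite sites in B cells, fell from 335 CPM to 14.8 and 19.1 CPM (log2 change -4.30, SE 0.20, adjusted p = 0.00323, edgeR). Irf8, which binds such sites as well, fell from 368 CPM to 65.6 and 70.4 CPM (log2 change -2.44, SE 0.13). Tcf3 and Ebf1, factors of B-lineage commitment, fell by 1.63 (SE 0.12) and 1.62 (SE 0.16) on the log2 scale, and both calls were lost with the assumed variation.

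Runx1, a frequent partner of Ets1, rose from 149 CPM to 265 and 333 CPM (log2 change 1.01, SE 0.19, adjusted p = 0.0371, edgeR), a call lost with the assumed variation (adjusted p = 0.768). Tal1, a stem and erythroid factor that works with Erg and Fli1, had 4 counts in wild-type cells and 46 and 88 without Pax5. It rose from 0.624 CPM to 7.10 and 12.9 CPM but passed the filter only through the Pax5-/- samples. Its log2 change was 3.97 (SE 0.72), a call lost with limma-voom. Other progenitor partners were near the limit of detection, with no Gata2 counts and 3, 2 and 0 counts of Gata1. Cebpa, which acts with PU.1 in myeloid cells, had 3, 4 and 1 counts, and Cebpb 7, 9 and 0.

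Known lymphoid targets of PU.1 or Spi-B split. All 15 were tested, and 5 rose, 6 fell and 4 were not called, where 18.1% of all genes tested were called. The median log2 change of the 15 targets was -0.67 beside 0.01 for all genes. Among those that fell, Ms4a1, the gene of CD20, went from 442 counts to 0 in both Pax5-/- samples, at least 305-fold lower (3 counts over the group). Ms4a1 passed the filter only through the wild-type sample. Blnk, an adaptor of the pre-B-cell receptor, fell from 584 CPM to 5.56 and 3.38 CPM, and Cd79a, a chain of that receptor, from 1004 CPM to 79.2 and 109 CPM. Blnk and Cd79a are also known targets of Pax5.

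Among those that rose, Grap2, an adaptor of T-cell signalling, went from 6.55 CPM to 69.6 and 72.3 CPM (log2 change 3.43, SE 0.18, adjusted p = 0.00377, edgeR). Flt3, a receptor of early progenitors, had 3 counts in wild-type cells and a ratio of 335 (95% exact interval 114 to 1626). Flt3 passed the filter only through the Pax5-/- samples. Btk, Igll1, Fcgr2b and Nfkb1 were not called, though Igll1 was lower past the threshold in 5 of 8 alternatives and Btk in 2.

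Of 16 myeloid targets of PU.1, 13 were tested, 4 rose, 0 fell and 9 were not called, where 18.1% of all genes tested were called. Their median log2 change was 0.36. The kinase gene Fgr rose from 4 counts to 145 and 142 (log2 change 5.07, SE 0.36), lysozyme Lyz2 from 4.37 CPM to 14.2 and 18.8 CPM, and the oxidase subunits Ncf1 and Ncf4 by log2 changes of 1.46 (SE 0.23) and 1.15 (SE 0.16). Fgr passed the filter only through the Pax5-/- samples. The calls of Lyz2, Ncf1 and Ncf4 were lost with the assumed variation, and that of Lyz2 with limma-voom as well. The receptor genes Csf1r, with 8, 4 and 22 counts, and Csf3r, with 0, 0 and 1, were not called or not tested, and Fcgr1 had no counts. Cybb, on the X chromosome, was at 108 and 27.2 CPM in the Pax5-/- samples and 74.1 CPM in wild-type cells, so the Pax5-/- samples lay on either side of it.

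**Figure D4:**
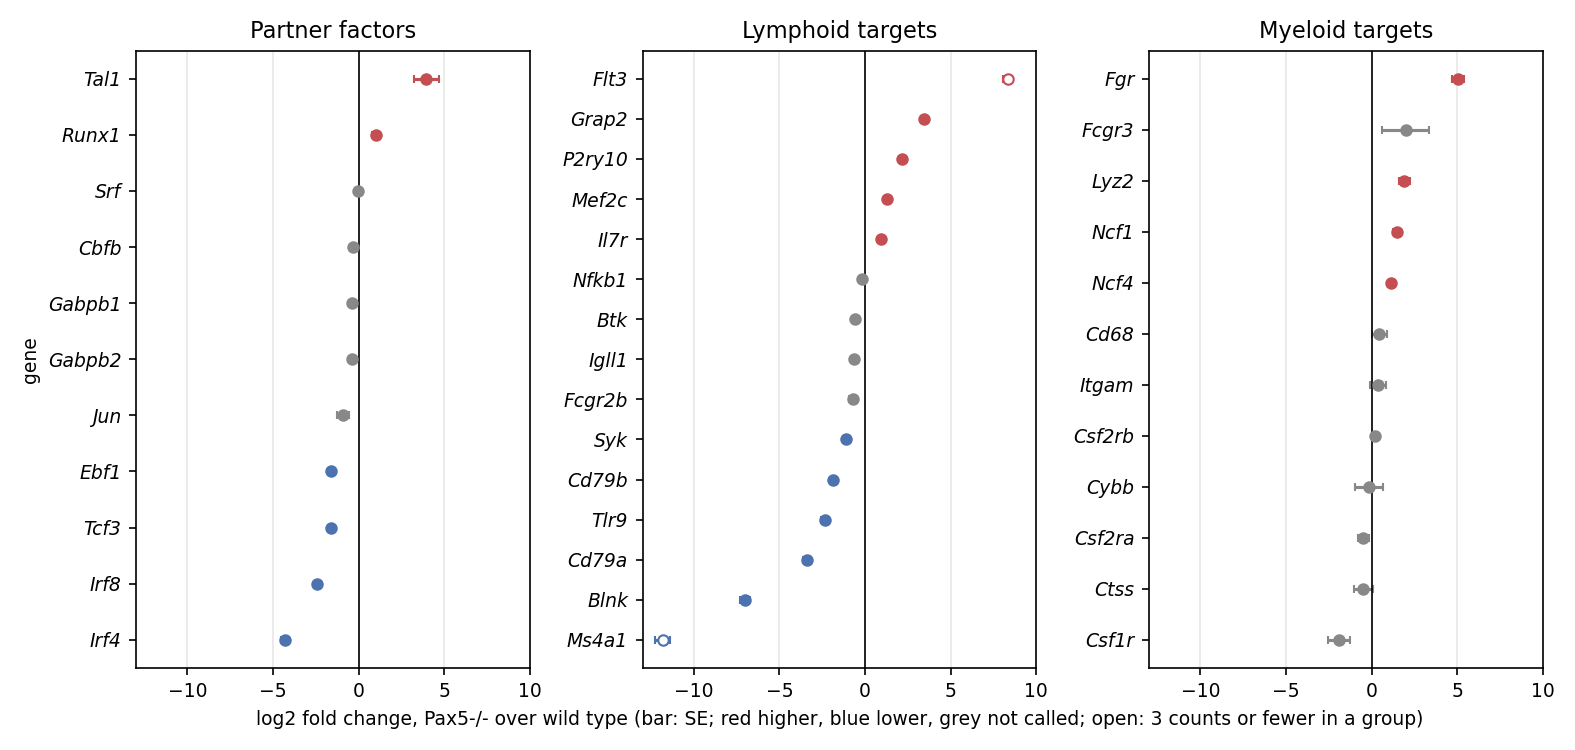
Log2 change of Pax5-/- over wild type, with its SE, for the tested genes reported here from 3 lists: partner factors, lymphoid targets and myeloid targets of PU.1 or Spi-B; open circles have at most 3 counts in a group. Irf4 and Irf8 are the lowest partners, the lymphoid targets run from Ms4a1 to Flt3, and the called myeloid targets are all higher.

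Other cell types that use these factors were checked by their markers, again beside 18.1% called over all genes tested. Of 9 markers of plasmacytoid dendritic cells, which depend on Spi-B, 8 were tested, of which 4 rose (Siglech, Ccr9, Pacsin1 and Runx2) and 4 were not called. Siglech was at 17.7 and 26.7 CPM against 2.81 CPM, and Runx2 at 28.9 and 26.4 CPM against 0.624 CPM. Runx2 and Pacsin1, with 4 and 5 counts in wild-type cells, passed the filter only through the Pax5-/- samples. The summed level of the list was 1452 and 323 CPM without Pax5 and 356 CPM in wild-type cells, and Klk1 was at 0 in Pax5-/-. Much of that range was Bst2, at 787 and 126 CPM against 263 CPM, and Irf7, at 364 and 11.3 CPM against 43.7 CPM. The call of Siglech was lost with limma-voom. In Pax5-/- sample 2 the list summed to less than in wild-type cells, with Bst2, Irf7 and Klk1 lower there. The 4 called markers were higher in sample 2, with Ccr9 at 25.9 CPM against 3.28 CPM and Pacsin1 at 11.0 CPM against 0.780 CPM. The part of these markers in the level of Spib was not tested.

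Of 11 myeloid markers, 8 were tested, 3 rose, 2 fell and 3 were not called, and they summed to 59.7 and 72.6 CPM without Pax5 and 65.7 CPM in wild-type cells. Prtn3 was at 19.4 and 17.04 CPM against 1.56 CPM and Ctsg at 12.8 and 13.4 CPM against 0.936 CPM, whereas S100a9 had 232 counts in wild-type cells and 0 in Pax5-/-. S100a8 had 30 counts in wild-type cells and 0 in Pax5-/-. S100a8 and S100a9 passed the filter only through the wild-type sample, and Ctsg, with 6 wild-type counts, only through the Pax5-/- samples. The part of these markers in the level of Spi1 was not tested.

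Vessel cells express Ets1, Erg and Fli1 as well. Stromal and endothelial markers summed to 118 and 117 CPM without Pax5 and 108 CPM in wild-type cells. Of 11 genes 4 were tested and 0 were called. The 2 with the smallest p were Pdgfrb, with 15 and 18 counts against 4 (log2 change 1.96, adjusted p = 0.115, edgeR), and Col1a1, with 12 and 6 counts against 23 (log2 change -1.39, adjusted p = 0.192, edgeR). Nearly all of the sum was Pecam1, which leukocytes also express, and Lum, Dcn, Tek and Emcn were at 0 in every sample. The megakaryocyte markers Pf4 and Ppbp were at 0 throughout. Of 8 T-cell markers 2 were tested and rose, Lck and Thy1 (the latter not with limma-voom or the assumed variation), and the list summed to 288 and 264 CPM against 59.1 CPM. Lck was at 231 and 176 CPM against 38.5 CPM and Thy1 at 55.9 and 87.3 CPM against 18.7 CPM, while Cd3e, Cd3d, Cd3g and Bcl11b had 0 to 2 counts in every sample. Of 6 NK markers 2 were tested and Nkg7 rose (not with limma-voom), with sums of 22.2 and 32.5 CPM against 3.90 CPM, and Ncr1 and Eomes had 0 or 1 count. Nkg7, with 5 wild-type counts, passed the filter only through the Pax5-/- samples.

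Spib, Irf4, Irf8 and Ms4a1 are also expressed by later B cells. Igkc, the kappa light-chain constant gene that marks later stages, had 54 and 30 counts in the IgM-depleted Pax5-/- samples and 3927 in wild-type cells, for which no depletion is stated. Genotype, sex, depletion and stage cannot be told apart here.

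The genes most like Spib across the 3 samples were found by the distance between centred log2 CPM values, among 9481 other tested genes with at least 5 CPM on average. They were Gpr12 (distance 0.0960), Hspa8 (0.113), Rps3a1 (0.276), Dnase1l3 (0.286) and Gpr155 (0.328). Gpr12, a receptor gene, was at 0.309 and 0.294 CPM against 15.9 CPM, and Dnase1l3, an endonuclease gene, at 0.463 and 0.588 CPM against 23.1 CPM. Gpr12 and Dnase1l3 passed the filter only through the wild-type sample. Hspa8 was at 48.5 and 48.5 CPM against 1262 CPM, and Rps3a1 at 5.09 and 5.43 CPM against 120 CPM. Hspa8 and Rps3a1 are known to have near-identical copies in the genome that can take up reads, so their counts are uncertain. Whether reads or mapping differed between the Pax5-/- and wild-type libraries was not tested. The closest to Spi1 were Gtf2ird2, Llgl2, Steap3, Nutf2 and Vmac, at distances of 0.00660 to 0.0113. With 3 samples many genes share such a pattern, and the likeness is a description.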

How the data were processed

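RNA of 2 Pax5-/- and 1 wild-type pro-B cell samples was sequenced. The deposited values are whole-number gene counts made with featureCounts on mm10, per the submitters' processing notes. The sources used here give no version, aligner, annotation or strand rule. A gene length, per the file headers, in bases accompanies each count, and the authors did not normalize the counts. Symbols and coordinates came from RefSeq GRCm38.p6, the assembly mm10 names, and 25275 of 27179 Entrez numbers (93.0%) matched.

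Counts were tested in R 4.3.3 with edgeR 4.0.16: filterByExpr by group (minimum count 10), TMM scaling, glmQLFit and glmQLFTest, Benjamini-Hochberg adjustment over all 11783 genes tested, threshold 0.05. There was 1 residual degree of freedom per gene, with 3.15 prior degrees of freedom drawn from all genes. An exact permutation over 3 samples cannot go below p = 0.333. SE is the log2 fold change over the square root of F. Intervals are exact Clopper-Pearson (95%). The script was tested on simulated data. Alternatives used RLE or library size alone, 2 other filters, DESeq2 1.42.0, limma-voom 3.58.1, robust dispersion and an assumed variation of 0.4. The naming rule takes every ETS gene, from each other list up to 4 called genes of at least 1 CPM with the largest fold changes (with none called, the 2 with the smallest p), and the 5 genes most like Spi1 and Spib. Other genes named, such as Igkc, Runx1 and Csf1r, were chosen after their values were seen. Members and lists were chosen with earlier results of these data known. Some genes of these lists are not reported here.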

Additional observations from a re-analysis of the deposited data

How the results depend on the processing

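The count of calls over all 11783 genes tested was 2130 and became 1206 with an assumed biological variation of 0.4. Under that assumption 2 of the 9 members (Spib and Elk3) and 2 other ETS genes were called, with 3 partner factors, 6 lymphoid targets and 2 myeloid targets. Of those 2 myeloid targets 1 was higher and 1 lower. DESeq2 called 4 myeloid targets higher and 1 lower, beside 1860 calls over the 11783 genes tested. Under limma-voom 3 members (Spib, Elk3 and Etv6) and 2 other ETS genes were called, beside 1925 calls over the 11783 genes tested. Under the other alternatives every count named here stayed within 1.5 times its main value. The direction held for all 18 tested ETS genes in all 144 combinations with the 8 alternatives, of which 14 lost and 8 gained a call, and in 36 of 36 values with either Pax5-/- sample left out. Those values keep the scaling and dispersions of the full fit, since 2 samples leave no spread to test. Among the ETS genes Etv5 alone moved by over 1.5 times. Srf, not called, had a log2 change of 0.0295 with library size alone and 0.0215 with Pax5-/- sample 1 left out, the opposite sign. Irf7 and Bst2, neither called, changed sign with Pax5-/- sample 1 left out, as did Cybb, not called, with sample 2 left out. With a Pax5-/- sample left out, the Spib share of the summed ETS level is that of the other sample alone, 1.80% or 2.09%. That is no separate check. No count of calls could be made with a sample left out. The lone wild-type sample could not be left out. No paired analysis was possible, with 1 wild-type sample and no pairing stated in the sources used here. Depth limits Etv1, Etv4 and the ETS genes at 0.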
